A study of Mus musculus with 16 samples.

Results

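Glucose enters a muscle cell through facilitative transporters, is phosphorylated by hexokinase, and is then either stored as glycogen or split by glycolysis to pyruvate, which is reduced to lactate or passed to the mitochondria. Many of these steps have a widely expressed isoform and an isoform typical of skeletal muscle, and the change from the first to the second is a known part of muscle differentiation. AMP-activated protein kinase (AMPK) is the energy sensor that acts on several of these steps in muscle, including glucose uptake and glycogen synthesis. The RNA of 40 genes of glucose uptake, glycolysis, lactate export, pyruvate dehydrogenase control and glycogen turnover was examined. The genes were taken by symbol and matched through their Ensembl identifiers, and all 40 were found among the 49585 genes of each of 2 count tables.

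The cells were C2C12, a mouse line of muscle precursors (myoblasts) that fuse to multinucleated myotubes when serum is lowered. The first table held WT cells and AMPK-KO cells, in which both catalytic subunit genes *Prkaa1* and *Prkaa2* had been disrupted with CRISPR-Cas9. Both genotypes were sequenced at differentiation day 0 (d0, the myoblast stage) and day 8 (d8), with 2 libraries per group and 8 in all. In the second table, all 8 libraries were AMPK-null myoblasts at d0 whose *Tet2* locus, encoding a DNA demethylation enzyme, carried a FLAG-BirA tag and an EGFP sequence. These were either TET2-WT, with the native serine, or TET2-S97E, in which glutamic acid stands in for phosphorylated serine at the AMPK site. Each TET2 genotype was 2 clones with 2 replicates per clone, so a genotype rests on 2 independent lines. The study's text speaks of more than 1 independent AMPK-KO line among its sequencing data, and which line gave each of the 4 AMPK-KO libraries was not given in the sources used here. The libraries of the AMPK comparison held 17883417 to 24663079 counts each, and those of the TET2 comparison 19801909 to 37790358. Values are CPM, counts scaled to a common normalized library size, for comparisons of 1 gene between libraries, and TPM, which also divide by gene length, for comparisons between genes.

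The targeted genes were read first. *Prkaa1*, the alpha 1 subunit, was at 158 and 159 CPM in WT d0 and 126 and 125 CPM in WT d8, against 79.7 and 78.0 CPM in AMPK-KO d0 and 83.3 and 82.5 CPM in AMPK-KO d8. *Prkaa2* was at 1.69 and 1.79 CPM in WT d0 and 6.22 and 10.1 CPM in WT d8, against 0.209 and 0.421 CPM and 1.26 and 0.826 CPM in the AMPK-KO groups. Every AMPK-KO library was below every WT library of the same day for both genes, and RNA of both remained detectable. In the separately normalized TET2 libraries, all AMPK-null, *Prkaa1* was at 73.45 to 103.9 CPM and *Prkaa2* at 0.454 to 1.73 CPM. The highest *Prkaa2* value, in TET2-S97E clone 2 replicate 2, was about that of WT d0. The study's text gives the disruptions as an insertion in an exon of *Prkaa1* and deletions in an exon of *Prkaa2*. *Tet2* was at 22.5 to 58.4 CPM in the TET2-WT libraries and 7.88 to 22.1 CPM in the TET2-S97E libraries, and these values do not show the changed codon itself. Every TET2-S97E library was below every TET2-WT library, so the changed codon and a lower *Tet2* RNA level cannot be told apart.

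Some libraries stood apart. AMPK-KO d8 replicate 1 held 948 summed CPM of 6 interferon response genes, led by *Ifit1* at 333 CPM, against 22.3 CPM in AMPK-KO d8 replicate 2 and 4.14 to 8.68 CPM in the other 6 libraries of its table. The 9 markers of differentiating muscle summed to 1763 CPM in AMPK-KO d8 replicate 1 and to 10380 CPM in replicate 2, around the 5761 and 8794 CPM of the WT d8 libraries. At d0 the same markers summed to 235 and 236 CPM in WT and 26.4 and 25.8 CPM in AMPK-KO cells, and *Myod1*, a factor that defines myoblasts, was at 77.5 and 133 CPM against 7.90 and 13.6 CPM. Fibroblast markers summed to 2262 to 11810 CPM in the first table, most of it *Col3a1*, which cultured C2C12 cells also express. The defining macrophage markers *Ptprc* and *Adgre1* were at or under 3 counts in all 16 libraries, while the macrophage-list genes *Cd68*, at 0.845 to 6.66 CPM, and *Csf1r* were above 3 counts in 16 and 15 libraries. The 5 adipocyte markers summed to 0.0972 to 0.209 CPM in the first table, none of them above 3 counts, and to 0.101 to 1.67 CPM in the TET2 table, where *Fabp4*, *Plin1* or *Adipoq* was above 3 counts in 7 of the 8 libraries and *Lep* and *Cfd* in none.

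In WT myoblasts the enzymes of lower glycolysis were the most abundant members per length. At d0 the highest mean TPM were those of *Pkm* (pyruvate kinase, 1962 ± 4.39, SD, n = 2), *Pgk1* (phosphoglycerate kinase, 1778 ± 533) and *Gapdh* (1674 ± 450), followed by *Ldha*, *Eno3*, *Aldoa*, *Tpi1* and *Eno1* at 1003 to 1188 TPM. The spread between the 2 libraries was wider than the gaps between these neighbours, so their order was not resolved. Hexokinases, phosphofructokinases and transporters were lower, with *Slc2a1* (GLUT1, the basal glucose transporter) at 193 ± 59.4 TPM and *Hk1* at 117 ± 26.1 TPM. The insulin-responsive transporter *Slc2a4* (GLUT4) was near the bottom at 0.240 ± 0.196 TPM in WT d0 and 1.24 ± 0.347 TPM in WT d8, which came from 2 and 7 counts in the WT d0 libraries and 17 and 30 in the WT d8 libraries. Liver glycogen phosphorylase *Pygl* had at most 7 counts in any library, was tested in neither table, and in 12 of the 16 libraries had no count. The 40 genes together took 1.10% and 1.47% of all TPM in WT d0 and 0.854% and 0.941% in WT d8.

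**Figure D1:**
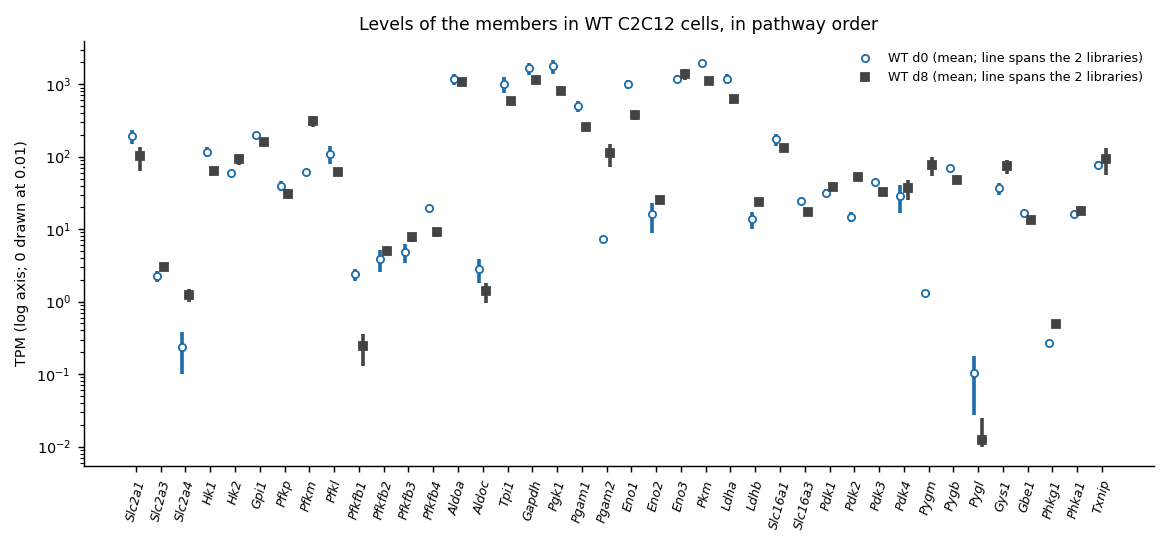
Level of each of the 40 genes in WT cells at d0 (open circles) and d8 (filled squares), in TPM on a log axis, with genes in pathway order from uptake to glycogen; each line spans the 2 libraries of the group. The lower glycolytic enzymes lie highest, with *Pkm* at 1962 TPM on average at d0, while *Pygm*, *Pgam2* and *Pfkm* sit higher at d8 than at d0.

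The first comparison asks how the set changes as WT myoblasts become myotubes. At d8 the muscle isoforms *Pygm*, *Pgam2* and *Pfkm* rose, while the widely expressed *Pgam1*, *Eno1* and *Hk1* fell. Of 39 members tested, 4 were called higher and 8 lower at an adjusted p under 0.05 from edgeR's quasi-likelihood test, against 5.78% and 6.58% of all 14329 genes tested. The median log2 fold change was −0.40 over the members and 0.01 over all genes.

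The largest rise was that of *Pygm*, muscle glycogen phosphorylase, which releases glucose units from glycogen. It was at 1.01 and 1.36 CPM in WT d0 and 46.7 and 87.1 CPM in WT d8, a log2 fold change of 5.82 ± 0.88 (SE, edgeR adjusted p = 0.0146). *Pgam2*, the muscle phosphoglycerate mutase, rose from 1.64 and 1.84 CPM to 16.4 and 34.5 CPM (3.87 ± 0.73, edgeR adjusted p = 0.0214). The d0 and d8 libraries of both genes were far apart, and in both the second d8 replicate was well above the first. *Pfkm*, muscle phosphofructokinase at the committed step of glycolysis, rose from 59.1 and 58.1 CPM to 232 and 332 CPM (2.27 ± 0.39, edgeR adjusted p = 0.0174). *Pdk2*, a kinase that inactivates pyruvate dehydrogenase, rose from 14.9 and 11.4 CPM to 39.2 and 50.7 CPM (1.78 ± 0.36, edgeR adjusted p = 0.0258).

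The 8 members that fell included 5 consecutive or near consecutive enzymes of lower glycolysis. *Eno1*, the widely expressed enolase, fell from 1274 and 1772 CPM to 619 and 466 CPM, a log2 fold change of −1.49 ± 0.25 (edgeR adjusted p = 0.0169). *Pgk1* fell from 860 and 1397 CPM to 465 and 514 CPM (−1.21 ± 0.25, edgeR adjusted p = 0.0273), and *Pgam1*, the widely expressed mutase, from 227 and 339 CPM to 150 and 129 CPM (−1.02 ± 0.23, edgeR adjusted p = 0.0344). *Ldha*, which makes lactate, fell from 903 and 1319 CPM to 576 and 548 CPM (−0.98 ± 0.22, edgeR adjusted p = 0.0319). *Pkm* fell from 2690 and 2829 CPM to 1513 and 1477 CPM (−0.88 ± 0.18, edgeR adjusted p = 0.0249). In each of these 5 genes both d8 libraries were below both d0 libraries, and WT d0 replicate 2 was the highest of the 4 WT libraries. The neighbouring enzymes *Tpi1* (−0.85 ± 0.29, edgeR adjusted p = 0.0957) and *Gapdh* (−0.61 ± 0.25, edgeR adjusted p = 0.150) did not pass the test. Several of these genes have near-identical processed copies in the mouse genome, and how reads matching more than 1 place were counted was not given in the sources used here, so their levels carry that uncertainty.

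The other 3 that fell act earlier. *Hk1*, the widely expressed hexokinase, went from 229 and 333 CPM to 139 and 158 CPM (−0.92 ± 0.21, edgeR adjusted p = 0.0346). Among the bifunctional enzymes that set the level of fructose 2,6-bisphosphate, the activator of phosphofructokinase, *Pfkfb4* went from 27.3 and 26.9 CPM to 13.7 and 10.5 CPM (−1.17 ± 0.23, edgeR adjusted p = 0.0258). *Pfkfb1* went from 2.12 and 3.31 CPM to 0.386 and 0.141 CPM (−3.36 ± 0.58, edgeR adjusted p = 0.0169). Its locus overlaps *Apex2*, and those of *Pfkm*, *Pfkp* and *Pdk2* overlap *Senp1*, *Pitrm1* and *Gm11513*; the use of strand in counting was not stated, so reads of such pairs may not be told apart. *Pfkfb2* and *Pfkfb3* did not pass the test, with changes of 0.33 ± 0.35 and 0.64 ± 0.35.

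These calls rested on few libraries. Without WT d0 replicate 2, WT d8 replicate 1 or WT d8 replicate 2, none of the 12 members was called, and edgeR then called 0 of 15155, 2 of 15064 and 0 of 14959 genes in all (2971, 3201 and 2749 at an unadjusted p under 0.05). Without AMPK-KO d0 replicate 1 there were 7, with 7.15% of all genes called, and without any of the other 4 libraries there were 10 to 14, with 7.55% to 14.9% of all genes. Along with these changes, 8 of the 9 muscle markers and 3 of the 5 fibroblast markers were called higher, the others having positive fold changes without a call, and all 6 proliferation markers were called lower, their sum going from 978 and 1851 CPM to 140 and 133 CPM; the part of these in the members' changes was not tested. In bulk RNA, fewer cells that express a gene and less RNA of it per cell cannot be told apart.

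**Figure D2:**
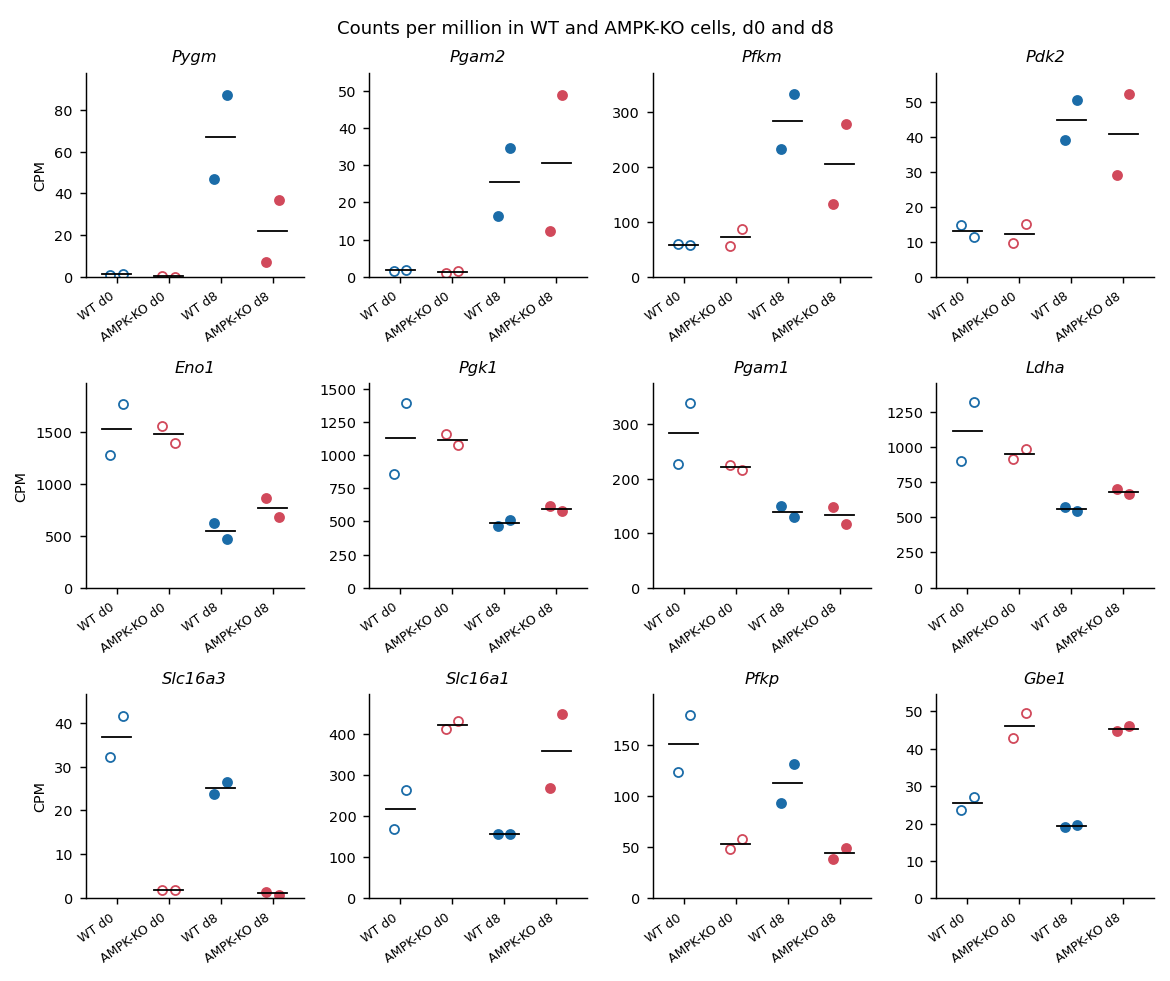
CPM of 12 members in the 8 libraries of the first table (open points, d0; filled points, d8; black bars, group means of 2 libraries). *Pygm*, *Pgam2*, *Pfkm* and *Pdk2* are higher at d8 in both genotypes, *Slc16a3* and *Pfkp* are lower in all AMPK-KO libraries, and *Gbe1* is higher in them.

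The proximal promoters of the 2 isoforms with the largest rises are shown because they can be read against those of their widely expressed counterparts. The windows run from 250 bases before to 50 bases after the start in RefSeq (GRCm38.p6), 5′ to 3′ on the gene's strand, and capitals mark E-boxes (CANNTG), the letters bound by muscle and other basic helix-loop-helix factors. *Pygm* lies at chr19:6384158-6384457 (+), *Pgam2* at chr11:5803747-5804046 (−), *Pygb* (brain glycogen phosphorylase) at chr2:150786546-150786845 (+) and *Pgam1* at chr19:41911621-41911920 (+).
Pygm: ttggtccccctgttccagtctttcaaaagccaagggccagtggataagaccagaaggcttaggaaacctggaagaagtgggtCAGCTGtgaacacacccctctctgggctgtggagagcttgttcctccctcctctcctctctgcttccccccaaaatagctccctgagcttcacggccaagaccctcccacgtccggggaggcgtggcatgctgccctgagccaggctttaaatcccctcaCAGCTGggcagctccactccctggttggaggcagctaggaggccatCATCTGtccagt
Pgam2: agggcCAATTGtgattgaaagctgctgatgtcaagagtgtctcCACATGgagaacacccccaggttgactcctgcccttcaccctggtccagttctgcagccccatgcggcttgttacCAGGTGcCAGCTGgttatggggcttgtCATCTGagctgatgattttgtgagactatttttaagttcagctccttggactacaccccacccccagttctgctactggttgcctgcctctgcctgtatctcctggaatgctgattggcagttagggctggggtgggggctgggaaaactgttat
Pygb: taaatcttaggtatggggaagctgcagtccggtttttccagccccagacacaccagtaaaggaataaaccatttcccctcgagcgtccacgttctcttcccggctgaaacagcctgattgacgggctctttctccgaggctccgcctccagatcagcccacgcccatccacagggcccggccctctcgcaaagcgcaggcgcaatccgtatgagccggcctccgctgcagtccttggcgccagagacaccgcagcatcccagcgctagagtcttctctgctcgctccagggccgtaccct
Pgam1: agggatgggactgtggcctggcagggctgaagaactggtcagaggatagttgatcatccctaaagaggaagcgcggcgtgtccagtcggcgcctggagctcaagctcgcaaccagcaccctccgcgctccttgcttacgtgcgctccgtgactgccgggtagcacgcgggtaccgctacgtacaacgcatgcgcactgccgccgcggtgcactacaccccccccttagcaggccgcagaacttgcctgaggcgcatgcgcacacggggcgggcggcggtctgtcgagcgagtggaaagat
The *Pygm* window holds 3 E-boxes, with CAGCTG at both of the sites whose first bases lie 168 and 8 bases before the start. The *Pgam2* window holds 5 E-boxes, one of them CAGCTG 125 bases before the start, and a MEF2 site 80 bases before it. Neither the *Pygb* nor the *Pgam1* window holds an E-box. They hold 2 and 3 matches to the hypoxia response core (ACGTG or GCGTG, which overlaps the E-box CACGTG), and the *Pygm* window also holds 2. Over all 32851 windows, searched on both strands, 72.3% held CANNTG, 16.3% CAGCTG, 43.8% the hypoxia core and 3.19% the MEF2 site. In the 57 windows of the 38 members with an entry the shares were 71.9%, 19.3%, 71.9% and 3.51%. These matches are letters in a window and were not tested against expression.

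The muscle isoforms of phosphorylase, phosphofructokinase, mutase, hexokinase and enolase took larger shares at d8 than at d0 in WT cells. *Pygm* made up 1.61% and 2.01% of the summed TPM of *Pygm*, *Pygb* and *Pygl* in WT d0 and 53.6% and 67.0% in WT d8. *Pfkm* went from 36.3% and 24.3% of the phosphofructokinases to 74.5% and 78.8%. *Pgam2* went from 1.68% and 1.27% of the mutases to 20.5% and 38.7%, and *Hk2* from 37.4% and 30.6% of *Hk1* and *Hk2* to 63.7% and 53.5%. *Eno3*, the muscle enolase, was at 53.5% and 53.9% of the enolases in WT d0 and stood at 71.5% and 82.3% in WT d8, where its own level was not called (0.15 ± 0.34, edgeR adjusted p = 0.802). In these 5 families the d8 and d0 libraries of WT did not overlap. The shares of *Ldhb*, *Slc2a4* and *Phkg1* did not overlap either, while those of *Phka1*, *Slc16a3* and *Aldoc* did. *Ldhb*, the heart-type lactate dehydrogenase subunit, stayed a minor form at 1.73% and 0.723% in d0 and 3.33% and 3.88% in d8. *Phka1*, the muscle form of a phosphorylase kinase subunit, was at 45.7% and 46.4% of *Phka1* and *Phka2* in WT d0 and at 38.3% and 47.0% in WT d8, and *Slc16a3*, the lactate exporter of glycolytic muscle, at 13.7% and 11.6% of its pair with *Slc16a1* in WT d0 against 11.3% and 12.4% in WT d8, both with overlap. *Slc2a4*, at few counts, was 0.159% or less of the 3 glucose transporters in WT d0 and 0.704% and 2.17% in WT d8, and 2.17% or less in every library of the first table. With 2 libraries against 2, an exact permutation test cannot give a two-sided p under 0.33, so shares are given without a test. Their absolute size depends on length scaling, and as shares of counts the WT d8 means were 50.6% for *Pygm*, 55.3% for *Pfkm* and 15.5% for *Pgam2* against 60.3%, 76.6% and 29.6% by TPM. For *Eno3* the mean share of counts was 27.3% in WT d0 and 52.6% in WT d8.

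The members that act around glycogen phosphorylase were not called between days. *Gys1*, muscle glycogen synthase, was at 38.6 and 60.5 CPM in WT d0 and 75.6 and 116 CPM in WT d8 (0.95 ± 0.43, edgeR adjusted p = 0.184). *Phka1*, a regulatory subunit of phosphorylase kinase, stayed within 26.8 to 38.7 CPM in all 8 libraries. *Phkg1*, the muscle catalytic subunit of that kinase, was at 1.10 CPM or less in every library, 1.62% to 7.61% of the TPM of *Phkg1* and *Phkg2*, with 4.15% and 4.41% in WT d0 and 6.69% and 7.35% in WT d8. Among 23 other glycogen genes, of which 21 were tested, 2 rose and 1 fell in WT, 14.3% against 12.4% of all genes. *Pgm5*, a phosphoglucomutase relative found at muscle cell junctions, rose from 1.21 and 1.08 CPM to 78.9 and 138 CPM (6.56 ± 0.50, edgeR adjusted p = 0.0106), and *Gyg*, glycogenin, which primes glycogen, rose by 0.95 ± 0.24 (edgeR adjusted p = 0.0434). *Pgm2* fell by 0.91 on the log2 scale (edgeR adjusted p = 0.0432). In AMPK-KO cells 1 of the 21 was called across days, higher at d8, which was 4.76% against 9.76% of all genes. Between the TET2-S97E clones 2 of 17 tested were called, both lower in clone 2, which was 11.8% against 6.17%.

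The second comparison follows the same days in AMPK-KO cells. Here 3 members were called higher and 1 lower of 39 tested, against 4.81% and 4.95% of all genes, and the median was −0.05 over the members and 0.02 over all genes. All 4 had also been called in WT in the same direction, on separate libraries that share 1 estimate of the spread. *Pygm* rose from 0.366 and 0.140 CPM to 7.02 and 36.7 CPM (6.42 ± 0.99, edgeR adjusted p = 0.0217), *Pgam2* from 1.05 and 1.68 CPM to 12.2 and 48.8 CPM (4.47 ± 0.75, edgeR adjusted p = 0.0227) and *Pdk2* from 9.73 and 15.1 CPM to 29.1 and 52.5 CPM (1.72 ± 0.36, edgeR adjusted p = 0.0328). *Pfkfb1* fell from 2.56 and 2.81 CPM to 0.204 and 0.243 CPM (−3.56 ± 0.58, edgeR adjusted p = 0.0223). In the 3 that rose, AMPK-KO d8 replicate 1 was the lower library, as it was for the muscle markers.

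*Pfkm* in AMPK-KO cells went from 56.2 and 87.3 CPM to 133 and 278 CPM (1.52 ± 0.38, edgeR adjusted p = 0.0523) and *Eno1* from 1560 and 1394 CPM to 859 and 680 CPM (−0.94 ± 0.25, edgeR adjusted p = 0.0599), both just outside the threshold; with the replicate number as a block *Pfkm* passed (1.48 ± 0.26, edgeR adjusted p = 0.0247). *Hk1* was nearly level, at 182 and 179 CPM in d0 and 187 and 161 CPM in d8 (−0.05 ± 0.21, edgeR adjusted p = 0.893). Without AMPK-KO d0 replicate 1 or replicate 2 no member was called, and edgeR called 0 of 15144 and 1 of 15056 genes in all (2608 and 3408 at an unadjusted p under 0.05). Without AMPK-KO d8 replicate 2 there were 2, with 392 of 15064 genes called, without WT d0 replicate 1 or replicate 2 there were 7 (11.5% and 11.4% of all genes), without WT d8 replicate 1 or replicate 2 there were 3 (2.93% and 2.39%), and without AMPK-KO d8 replicate 1 there were 5 (6.14%). In this comparison all 9 muscle markers were called higher and all 6 proliferation markers lower, and of the fibroblast markers *Dcn* was called higher. All 6 interferon response genes had positive fold changes, and *Ifit1*, *Irf7* and *Isg15* were called; the part of these was not tested. The isoform shares of the d8 libraries were spread widely, with *Pygm* at 14.5% and 46.3%, *Pgam2* at 16.3% and 49.6%, *Pfkm* at 54.7% and 74.7% and *Eno3* at 50.0% and 70.4%, the lower value being that of AMPK-KO d8 replicate 1 each time. *Hk2* was at 43.3% and 39.5% in AMPK-KO d8, below both WT d8 libraries.

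Other members, called in no comparison, are given here by their levels. *Hk2*, the muscle hexokinase, was at 95.8 and 103 CPM in WT d0, 82.5 and 48.4 CPM in AMPK-KO d0, 170 and 127 CPM in WT d8 and 99.9 and 73.8 CPM in AMPK-KO d8. *Eno3* was at 488 and 674 CPM, 723 and 729 CPM, 532 and 758 CPM and 288 and 544 CPM in the same order. *Gpi1*, phosphoglucose isomerase, was at 256 to 409 CPM in the first table and *Tpi1* at 390 to 1011 CPM. *Aldoa*, the main aldolase, was at 766 and 1172 CPM in WT d0, 850 and 892 CPM in AMPK-KO d0, 819 and 892 CPM in WT d8 and 1182 and 1863 CPM in AMPK-KO d8, and at 887 to 1949 CPM in the TET2 table. *Eno2*, the neuronal enolase, was at 11.0 to 33.7 CPM there and at 27.3 to 115 CPM in the TET2 table. The pyruvate dehydrogenase kinases *Pdk1* and *Pdk3* were at 32.2 to 81.4 CPM and 16.4 to 33.0 CPM in the first table. *Pygb* was at 60.5 to 98.6 CPM and was not called at d8 in WT (−0.62 ± 0.17, edgeR adjusted p = 0.0554, and 0.0360 with the replicate number as a block).

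Whether the change from d0 to d8 differed between genotypes was tested with the interaction. No member and none of the 14329 genes passed (0% called by edgeR's quasi-likelihood test, with 729 genes and 4 members at an unadjusted p under 0.05). DESeq2 called 60 genes and no member. The largest positive member difference was 1.39 ± 0.57 for *Slc2a1*, which was at 145 and 238 CPM in WT d0, 130 and 61.2 CPM in WT d8, 125 and 95.7 CPM in AMPK-KO d0 and 172 and 118 CPM in AMPK-KO d8. For *Hk1* it was 0.87 ± 0.30. A smaller number of calls in AMPK-KO cells than in WT cells is therefore not a shown difference between them.

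**Figure D3:**
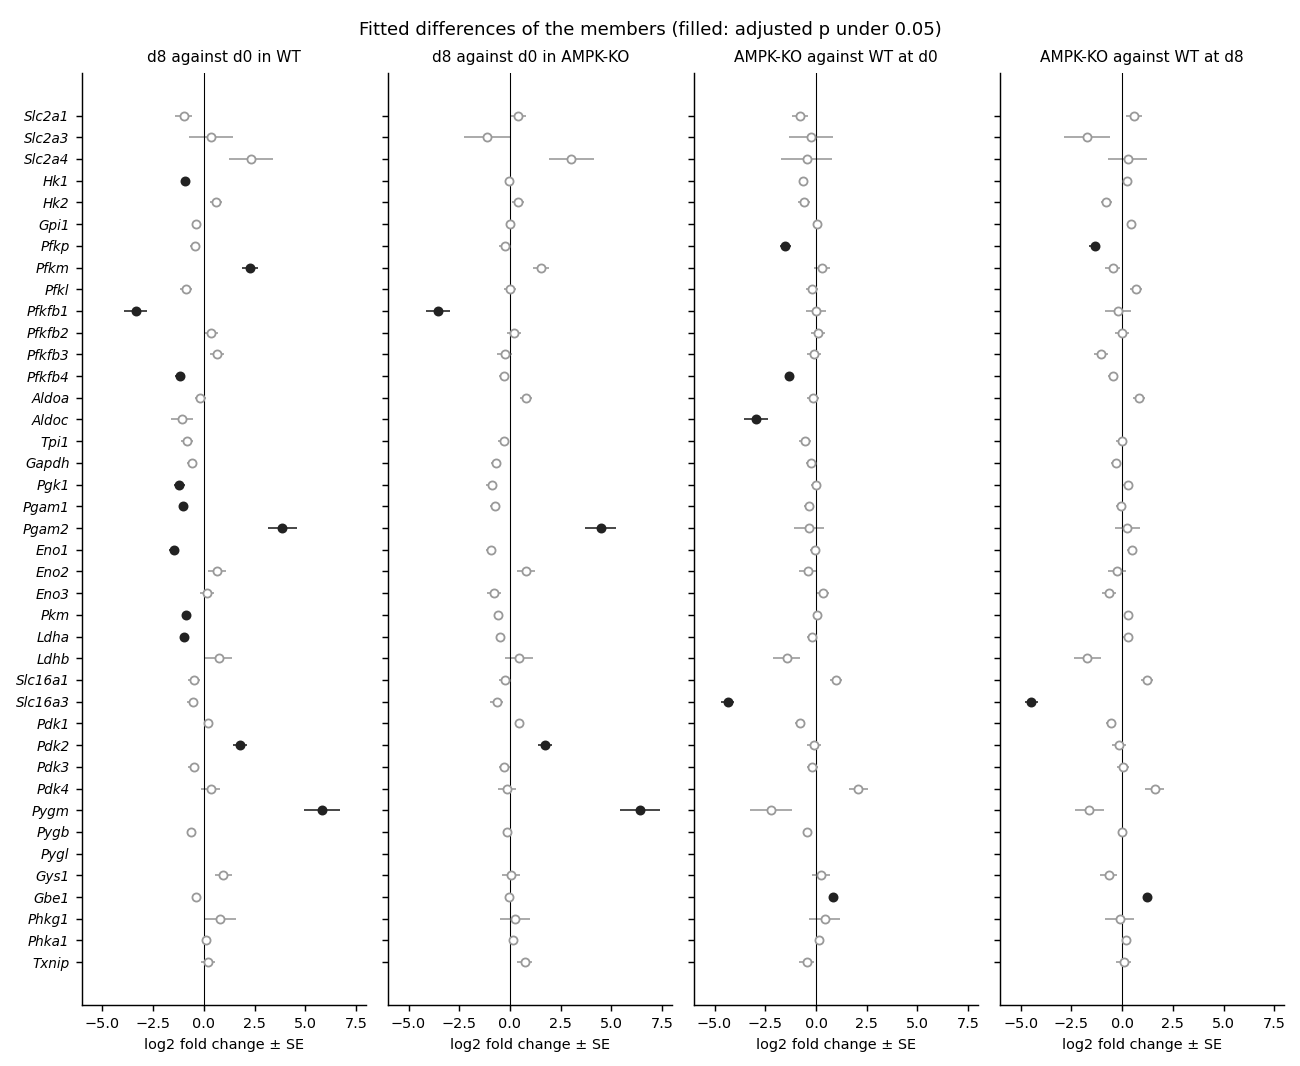
Log2 fold changes with SE for the tested members in 4 comparisons of the first table; filled points have an adjusted p under 0.05 from edgeR's quasi-likelihood test, and the 2 comparisons of *Aldoc* that rest on AMPK-KO d8, where both libraries are at 3 counts or fewer, are left out. The calls across days in both genotypes are *Pygm*, *Pgam2*, *Pdk2* and *Pfkfb1*, and those between genotypes are *Slc16a3*, *Pfkp*, *Aldoc*, *Pfkfb4* and *Gbe1*.

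The third comparison sets AMPK-KO against WT cells of the same day. By the study's text the AMPK-KO cells were picked clones after editing and puromycin selection. Loss of AMPK and traits of a clone therefore cannot be told apart here. The pattern was of a few members at both days, led by the lactate exporter *Slc16a3* (MCT4, the isoform of glycolytic muscle). At d0, 1 member was called higher and 4 lower of 39, against 0.698% and 2.83% of all genes, and at d8 1 was higher and 3 lower, against 1.36% and 3.98%. The member medians were −0.22 at d0 and −0.02 at d8, against 0.00 and 0.04 over all genes. The 4 calls at d8 were all among the 5 at d0, in the same direction. With the replicate number as a block, edgeR called 2 members higher and 4 lower at d0, against 1.20% and 3.96% of all genes, and 3 higher and 4 lower at d8, against 2.30% and 5.69%. The additional calls were *Pdk4* at d0 and *Slc16a1*, *Pdk4* and the bifunctional enzyme gene *Pfkfb3* at d8, the last with a log2 fold change of −1.02 ± 0.22 (edgeR adjusted p = 0.0441, and 0.145 without the block).

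*Slc16a3* was at 32.3 and 41.4 CPM in WT d0 against 1.78 and 1.82 CPM in AMPK-KO d0 (−4.35 ± 0.31, edgeR adjusted p = 0.00344). At d8 it was at 23.9 and 26.5 CPM against 1.43 and 0.826 CPM (−4.46 ± 0.32, edgeR adjusted p = 0.00325). The groups were far apart at both days, and the gene spans chr11:120948480-120960868 (+) in GRCm38. *Slc16a3* took 13.7% and 11.6% of the TPM of *Slc16a1* and *Slc16a3* in WT d0 and 0.357% and 0.350% in AMPK-KO d0. The companion *Slc16a1* (MCT1), which carries lactate in either direction, was at 170 and 263 CPM in WT d0, 414 and 432 CPM in AMPK-KO d0, 156 and 156 CPM in WT d8 and 269 and 450 CPM in AMPK-KO d8. Every AMPK-KO library was above the WT libraries of its day, but neither difference passed (0.96 ± 0.29, edgeR adjusted p = 0.130, and 1.21 ± 0.30, edgeR adjusted p = 0.0665). With the block the d8 difference was 1.16 ± 0.23 (edgeR adjusted p = 0.0371).

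*Emb* (embigin), a membrane chaperone that carries monocarboxylate transporters to the cell surface, was among 13 genes of pyruvate entry and transport that had been listed beside the members, and of the 12 tested it was the only one called between AMPK genotypes, 8.33% of the list against 3.52% of all genes at d0 and 5.35% at d8. It was at 28.4 and 15.0 CPM in WT d0 and 14.5 and 15.0 CPM in WT d8, against 0.366 and 0.187 CPM and 0.326 and 0.0486 CPM in AMPK-KO cells (−6.28 ± 0.67, edgeR adjusted p = 0.00863, and −6.19 ± 0.68, edgeR adjusted p = 0.00629).

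*Pfkp*, platelet-type phosphofructokinase, was at 123 and 180 CPM in WT d0 against 47.9 and 58.2 CPM in AMPK-KO d0, and at 93.4 and 131 CPM in WT d8 against 38.7 and 49.4 CPM in AMPK-KO d8. Both differences were called (−1.51 ± 0.26, edgeR adjusted p = 0.0305, and −1.35 ± 0.26, edgeR adjusted p = 0.0339) and all AMPK-KO libraries were below all WT libraries. The *Pfkp* calls held under 11 of 14 alternatives at d0 and 8 of 14 at d8. *Aldoc*, the brain-type aldolase, was at 3.42 and 1.68 CPM against 0.314 and 0.327 CPM at d0 (−2.97 ± 0.60, edgeR adjusted p = 0.0464). At d8 it was at 1.60 and 0.845 CPM in WT and at 3 and 2 counts in AMPK-KO cells, at least 9.11-fold lower with each AMPK-KO library set at a floor of 3 counts. The *Aldoc* calls held under 5 of 13 alternatives at d0 and 6 of 13 at d8, and the d0 call was lost in 7 of the 8 fits that left out 1 library. Its share of aldolase TPM was 0.397% at most, so *Aldoa* made nearly all aldolase RNA in both genotypes. *Pfkfb4* was lower at d0, at 9.58 and 12.2 CPM against 27.3 and 26.9 CPM (−1.32 ± 0.24, edgeR adjusted p = 0.0331, held under 7 of 14 alternatives), while at d8 AMPK-KO libraries were at 9.38 and 8.26 CPM against 13.7 and 10.5 CPM without a call (−0.45 ± 0.23, edgeR adjusted p = 0.302).

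*Gbe1*, the glycogen branching enzyme, was the member called higher. It was at 42.9 and 49.5 CPM in AMPK-KO d0 against 23.7 and 27.2 CPM in WT d0 (0.86 ± 0.17, edgeR adjusted p = 0.0400), and at 44.7 and 46.1 CPM against 19.0 and 19.6 CPM at d8 (1.24 ± 0.17, edgeR adjusted p = 0.0124). The d0 call of *Gbe1* held under 4 of 14 alternatives, and was lost in all 8 fits that left out 1 library, with at least 10 counts in every library and with that day's libraries alone, while the d8 call held under 12 of 14. *Pdk4*, the pyruvate dehydrogenase kinase induced by fasting, had higher values in every AMPK-KO library, at 136 and 99.5 CPM against 38.9 and 16.8 CPM at d0 and 92.6 and 119 CPM against 45.8 and 24.0 CPM at d8. It did not pass (2.08 ± 0.46, edgeR adjusted p = 0.0605, and 1.60 ± 0.45, edgeR adjusted p = 0.0929) except with the block (2.15 ± 0.37, edgeR adjusted p = 0.0315, and 1.72 ± 0.37, edgeR adjusted p = 0.0451). Among the other glycogen genes, *Ppp1r3b*, which targets protein phosphatase 1 to glycogen, was called lower at both days (edgeR adjusted p = 0.0207 and 0.0236). It was at 3.28 and 1.73 CPM in WT d0 and had no count in AMPK-KO d0, at least 16.9-fold lower with each library at the floor of 3 counts, and at d8 at least 14.7-fold lower. *Pgm5* was lower at d8, at 9.59 and 14.2 CPM against 78.9 and 138 CPM (−3.19 ± 0.41, edgeR adjusted p = 0.0111).

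The muscle isoforms *Pygm*, *Pgam2*, *Pfkm* and *Eno3* were not called between genotypes at either day, and their d8 errors were wide. The d8 difference of *Pygm* was −1.62 ± 0.71 and that of *Pgam2* 0.26 ± 0.63, and for *Pgam2* one AMPK-KO library was below and the other above both WT libraries. *Ldhb* was at 7.52 and 4.55 CPM against 3.56 and 0.888 CPM at d0 and 9.42 and 10.5 CPM against 4.24 and 1.80 CPM at d8, also without passing (−1.45 ± 0.68 and −1.72 ± 0.67). *Slc2a3* (GLUT3) was at 3.47 CPM or more in 7 libraries of the first table and at 0.0486 CPM, a single count, in AMPK-KO d8 replicate 2.

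Between genotypes at d0, leaving out AMPK-KO d0 replicate 1 left no call and leaving out replicate 2 left 1, where edgeR called 17 of 15144 and 46 of 15056 genes in all (1866 and 2493 at an unadjusted p under 0.05), while 2 or 3 members were called without each of the other 6 libraries, with 1.54% to 4.07% of all genes. At d8 there was 1 call without WT d8 replicate 1 or replicate 2, with 108 of 15064 and 107 of 14959 genes called, 2 without AMPK-KO d0 replicate 1 or replicate 2 (3.86% and 3.63% of all genes), 3 without either AMPK-KO d8 library (1.55% and 3.66%), and 6 and 4 without WT d0 replicate 1 and replicate 2 (5.87% and 5.95%). Without the interferon-rich AMPK-KO d8 replicate 1, *Slc16a3* and *Gbe1* kept their d8 calls and *Pfkp* and *Aldoc* lost theirs. *Slc16a3* kept its d8 call whichever library was left out, and at d0 lost it only without AMPK-KO d0 replicate 1 (edgeR adjusted p = 0.0509). At d0 all 9 muscle markers had negative fold changes (median −3.29) and *Myod1*, *Myog* and *Mymk* were called lower in AMPK-KO cells. At d8 all 6 proliferation markers had positive fold changes (median 0.79) and 6 of the 9 muscle markers negative ones (median −0.83), with no call in either list. The fibroblast markers *Col1a1* and *Lum* were called lower at d8, with negative fold changes for 3 of the 5, and all 6 interferon response genes had positive fold changes (median 5.31), with *Ifit1* called higher. The part of these in the members' differences was not tested.

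**Figure D4:**
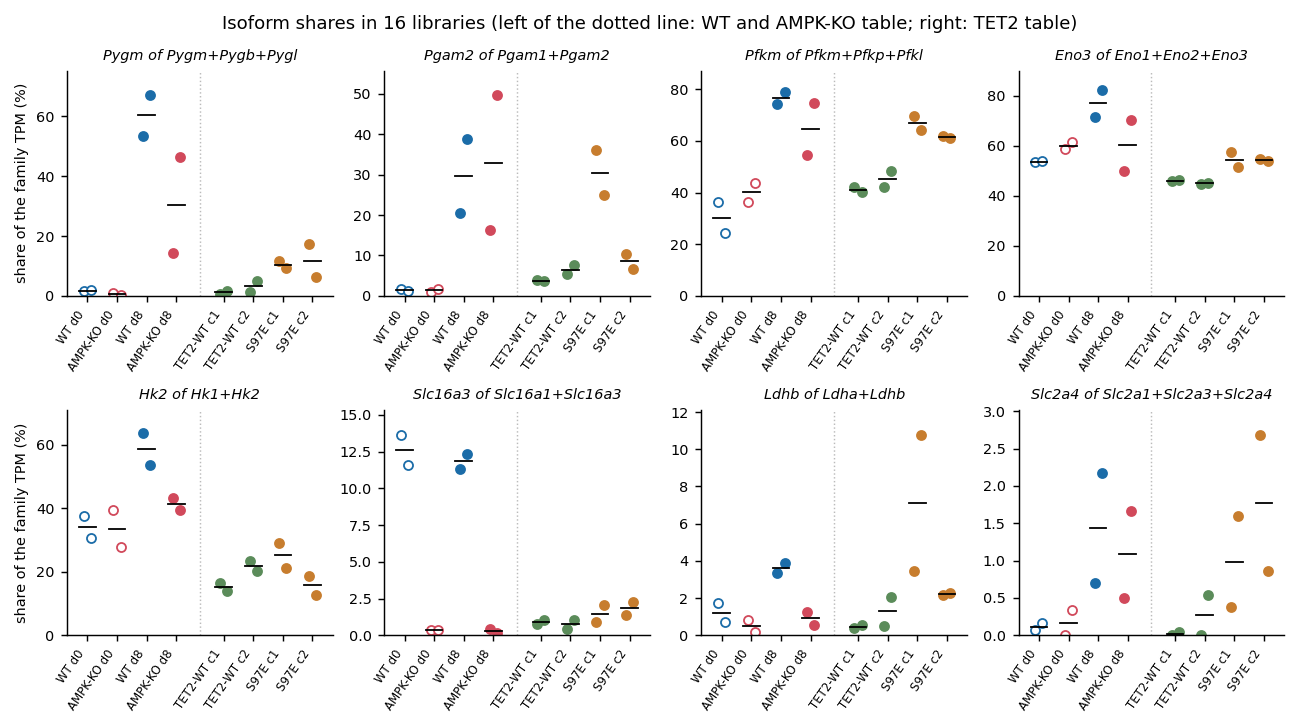
Share of each isoform in the summed TPM of its family, in percent, in all 16 libraries (points) with the mean of each group or clone (bars); the 2 tables were normalized separately. *Pygm*, *Pgam2* and *Pfkm* take larger mean shares at d8 and in TET2-S97E clones, where the *Pgam2* libraries overlap those of TET2-WT, while *Slc16a3* is 2.29% or less in every AMPK-null library.

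The fourth comparison asks what TET2-S97E does in AMPK-null myoblasts at d0. Of 37 members tested, 1 was called higher and 3 lower, against 3.71% and 3.28% of all 13433 genes tested, and the median was 0.08 over the members and 0.01 over all genes. *Slc2a3*, *Aldoc* and *Pygl* were not tested. The genotypes also differed in *Tet2* RNA, as given above, and the part of that in the members' differences was not tested. These p-values treat 4 libraries of a genotype as separate samples although they come from 2 clones. With counts summed per clone, 0% of 15126 genes were called (1575 at an unadjusted p under 0.05), so no member was called at the level of clones, while on the 8 libraries DESeq2 called 10 members and limma-voom, with a random effect for the clone, called 1, against 13.6% and 1.24% of all genes.

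*Slc16a1* was lower in TET2-S97E. It was at 291 and 279 CPM in TET2-WT clone 1 and 255 and 250 CPM in clone 2, against 154 and 99.4 CPM in TET2-S97E clone 1 and 113 and 84.6 CPM in clone 2, a log2 fold change of −1.25 ± 0.18 (edgeR adjusted p = 0.00783, and 0.277 with counts summed per clone). No TET2-S97E library reached the lowest TET2-WT library, and neither genotype's clones were called different from each other (−0.18 ± 0.23 in TET2-WT and −0.35 ± 0.23 in TET2-S97E). It was the call that limma-voom also made with clones as random effects (adjusted p = 0.0351). *Slc16a3* was low in all 8 libraries, at 1.28 to 3.48 CPM, and was not called (−0.35 ± 0.34, edgeR adjusted p = 0.595). The summed TPM of both lactate carriers was 197 ± 14.1 in TET2-WT and 81.6 ± 19.1 in TET2-S97E (SD, n = 4 libraries of 2 clones).

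*Txnip*, a glucose-induced arrestin that draws glucose transporters off the cell surface, was at 200, 187, 160 and 254 CPM in TET2-WT and at 103, 87.9, 96.9 and 116 CPM in TET2-S97E (−0.99 ± 0.16, edgeR adjusted p = 0.0110, and 0.277 with counts summed per clone). Here too the groups did not overlap. *Pfkl*, liver-type phosphofructokinase, was at 304 and 379 CPM and 252 and 240 CPM in the TET2-WT clones and at 165 and 179 CPM and 173 and 133 CPM in the TET2-S97E clones (−0.86 ± 0.17, edgeR adjusted p = 0.0219, and 0.354 with counts summed per clone). TET2-WT clone 1 was the higher of its pair, and without that clone none of the 4 members was called, and edgeR called 183 of 14224 genes in all (2677 at an unadjusted p under 0.05). Of the listed arrestin-domain relatives of *Txnip*, *Arrdc3* and *Arrdc4* were called and *Arrdc2* was not. *Arrdc3* was at 59.3, 49.2, 86.7 and 109 CPM in TET2-WT and 20.5, 29.1, 43.9 and 37.7 CPM in TET2-S97E (−1.22 ± 0.29, edgeR adjusted p = 0.0396). *Arrdc4* went the other way, from 0.181, 0.527, 0 and 0.143 CPM to 4.29, 3.94, 1.36 and 1.11 CPM (3.52 ± 0.81, edgeR adjusted p = 0.0322).

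*Pygm* was the member called higher. It was at 0.362 and 0.976 CPM and 0.778 and 2.92 CPM in the TET2-WT clones and at 5.90 and 5.86 CPM and 11.0 and 3.95 CPM in the TET2-S97E clones (2.39 ± 0.59, edgeR adjusted p = 0.0419, and 0.336 with counts summed per clone). It took 6.21% to 17.3% of the phosphorylase TPM in TET2-S97E and 0.688% to 5.07% in TET2-WT, without overlap. *Pfkm* took 61.2% to 69.8% of the phosphofructokinases in TET2-S97E against 40.2% to 48.3% in TET2-WT, and *Eno3* 51.5% to 57.6% of the enolases against 44.9% to 46.3%. The shares of *Hk2* (12.8% to 29.0% against 14.0% to 23.5%) and *Pgam2* (6.77% to 35.98% against 3.70% to 7.61%) overlapped. By level, *Pfkm* was at 118, 135, 99.6 and 124 CPM in TET2-WT and 213, 183, 162 and 122 CPM in TET2-S97E (0.51 ± 0.18, edgeR adjusted p = 0.124). *Eno3* was at 336, 418, 267 and 230 CPM against 441, 376, 446 and 339 CPM (0.36 ± 0.20, edgeR adjusted p = 0.312), and *Hk2* at 39.7, 37.0, 47.4 and 40.5 CPM against 63.7, 51.5, 39.2 and 29.3 CPM (0.16 ± 0.22, edgeR adjusted p = 0.730). In each of these 3 genes the genotypes overlapped and none was called. *Slc2a4* had 22 to 59 counts in the TET2-S97E libraries and 0, 2, 0 and 13 in the TET2-WT libraries (3.59 ± 0.97, edgeR adjusted p = 0.0571), and *Ldhb* was at 5.65 to 37.7 CPM against 1.94 to 5.95 CPM (2.34 ± 0.62, edgeR adjusted p = 0.0520). Along with these, 7 of the 9 muscle markers were called higher in TET2-S97E, their sum being 381 to 5004 CPM against 18.0 to 257 CPM. All 6 proliferation markers had positive fold changes (median 1.14), and 1 of them, *Mki67*, was called (1.70 ± 0.28, edgeR adjusted p = 0.0112), the sum being 233 to 574 CPM against 123 to 283 CPM. Mitochondrial genes took 2.03% to 2.29% of the counts of the TET2-S97E libraries and 1.00% to 2.14% of those of the TET2-WT libraries. The part of these in the members' differences was not tested.

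**Figure D5:**
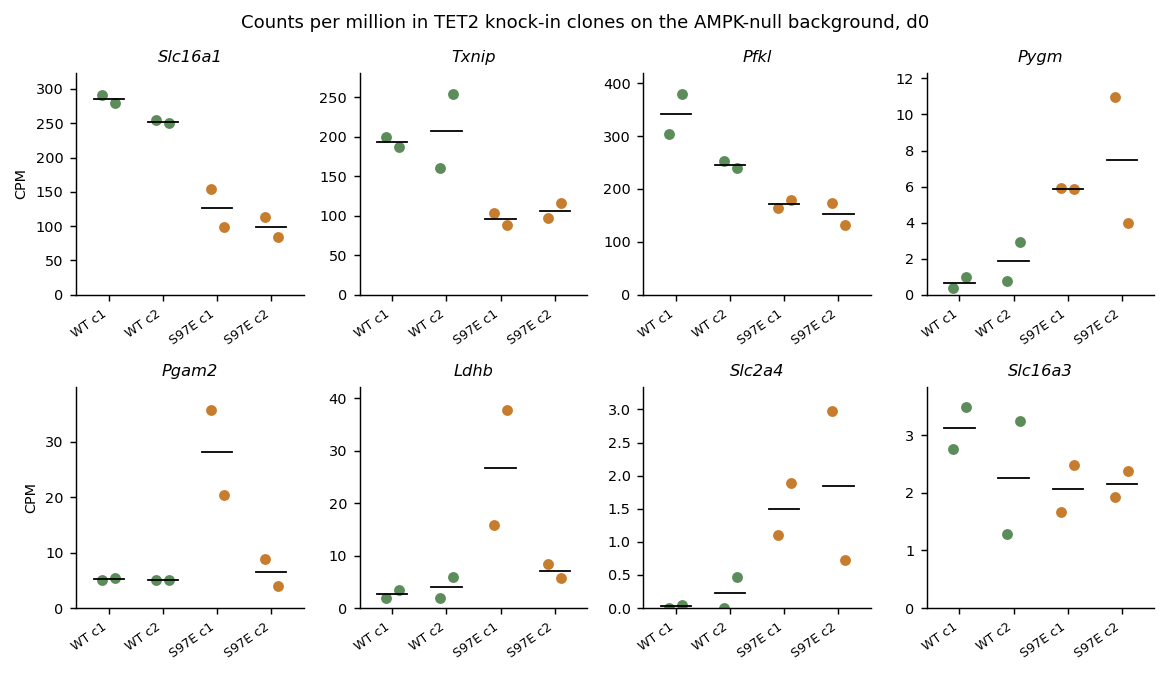
CPM of 8 members in the TET2-WT (green) and TET2-S97E (orange) clones, c1 and c2, at d0 on the AMPK-null background; points are the 2 replicates of a clone and bars their mean. *Slc16a1*, *Txnip* and *Pfkl* are lower in all TET2-S97E libraries, *Pygm* is higher in all of them, and *Pgam2* and *Ldhb* are highest in TET2-S97E clone 1.

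Clones of 1 genotype also differed. *Pgam2* was at 35.7 and 20.4 CPM in TET2-S97E clone 1 and 8.89 and 3.95 CPM in clone 2, against 4.97 to 5.35 CPM in all 4 TET2-WT libraries. The difference of clone 2 from clone 1 was −2.13 ± 0.39 (edgeR adjusted p = 0.0134), and it was the single member called of 37 tested between the TET2-S97E clones, where 3.35% of all 14459 genes were called higher and 2.82% lower. Between the TET2-WT clones no member was called by edgeR (14 had an unadjusted p under 0.05, and DESeq2 called 4), against 0.463% of all genes higher and 0.394% lower. The largest such difference relative to its error was that of *Pgk1*, at 973 and 1058 CPM in clone 1 and 481 and 419 CPM in clone 2 (−1.18 ± 0.26, edgeR adjusted p = 0.0766). Between the same clones all 9 muscle markers had positive fold changes in clone 2 (median 2.93), with *Myod1* called, and all 6 proliferation markers negative ones (median −1.11), with *Cdk1* called. The fibroblast markers *Col1a1* (2.91) and *Lum* (2.88) were also called higher, and the part of these in the members' differences was not tested. TET2-S97E clone 1 had *Myod1* at 147 and 145 CPM and clone 2 at 27.5 and 29.1 CPM. *Myod1* and *Myh3* were the muscle markers called between these clones, both lower in clone 2. Of the 9 muscle markers, 7 had negative fold changes in clone 2 (median −1.70) and 2 had positive ones. In clone 2 the fibroblast markers *Dcn* (1.92 ± 0.27) and *Lum* (3.51 ± 0.56) and the interferon response gene *Ifit3* (3.07 ± 0.45) were called higher, as was the adipocyte marker *Fabp4*, at 1.51 and 0.948 CPM against 3 counts or fewer in clone 1. All 6 proliferation markers had positive fold changes (median 0.69, 5 at an unadjusted p under 0.05) without a call by edgeR. The part of these in the *Pgam2* difference was not tested.

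Without TET2-WT clone 1 replicate 1 or TET2-S97E clone 1 replicate 1 the genotype comparison kept 2 of its 4 members, with 2.25% and 3.10% of all genes called. Without TET2-WT clone 2 replicate 2 it gave 7 (8.13% of all genes) and without TET2-S97E clone 2 replicate 2 it gave 8 (5.88%), and 3 without any of the other 4 libraries (2.17% to 5.52%). *Pygm* lost its call in 6 of these 8 fits, and *Slc16a1* and *Txnip* kept theirs in all 8. The *Pgam2* difference between TET2-S97E clones was called in 6 of 8 such fits, the exceptions being those without TET2-WT clone 1 replicate 2 and without TET2-S97E clone 1 replicate 1.

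Other genes of the same pathways were read from lists set by function. Of 8 pentose phosphate genes, the same 3 fell from d0 to d8 in both genotypes, against 6.58% and 4.95% of all genes lower, and none was called between genotypes. *G6pdx*, the entry enzyme that makes NADPH, went from 92.9 and 159 CPM to 33.6 and 33.4 CPM in WT (−1.91 ± 0.25, edgeR adjusted p = 0.0143) and from 158 and 142 CPM to 63.1 and 64.5 CPM in AMPK-KO cells (−1.23 ± 0.24, edgeR adjusted p = 0.0297). *Tkt*, transketolase, changed by −1.37 ± 0.20 and −1.12 ± 0.20, and *Pgd*, the next dehydrogenase, went from 213 and 218 CPM to 120 and 95.7 CPM in WT and from 242 and 204 CPM to 129 and 138 CPM in AMPK-KO cells.

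Of 17 other transporters and hexokinases, 7 were tested in the first table. Across days 3 were called in WT, 42.9% against 12.4% of all genes, and 1 in AMPK-KO cells, 14.3% against 9.76%. Between AMPK genotypes 1 was called at d8, 14.3% against 5.35%. In the TET2 genotype comparison 2 of 7 tested were called, 28.6% against 6.98%. *Slc2a6* (GLUT6) rose from 3.71 and 2.49 CPM to 25.0 and 46.7 CPM in WT (3.52 ± 0.40, edgeR adjusted p = 0.0143), while AMPK-KO d8 libraries were at 2.00 and 2.28 CPM, lower than WT d8 (−4.06 ± 0.41, edgeR adjusted p = 0.00472). It was higher in TET2-S97E, at 6.30, 5.40, 3.03 and 2.42 CPM against 0.678, 1.27, 0.595 and 0.713 CPM (2.38 ± 0.41, edgeR adjusted p = 0.0130). *Slc2a9*, a urate and hexose transporter, was lower at d8 in both genotypes (−2.33 ± 0.53 and −2.51 ± 0.54), and *Slc2a13*, a myo-inositol transporter, was higher at d8 in WT (1.59 ± 0.41) and lower in TET2-S97E (−1.40 ± 0.34).

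Of 18 genes of GLUT4 trafficking and its signalling, 2 rose and 1 fell in WT from d0 to d8, and 5 rose in AMPK-KO cells, that is 16.7% and 27.8% of the list against 12.4% and 9.76% of all genes. *Sort1*, sortilin of the GLUT4 storage vesicle, rose from 2.46 and 3.36 CPM to 27.0 and 29.1 CPM in WT (3.27 ± 0.49, edgeR adjusted p = 0.0146) and from 4.45 and 11.8 CPM to 24.0 and 35.5 CPM in AMPK-KO cells (1.87 ± 0.45, edgeR adjusted p = 0.0471). *Vamp2*, a vesicle fusion protein, rose in both (0.96 ± 0.21 and 1.08 ± 0.21). *Irs1*, the insulin receptor substrate, fell in WT (−1.11 ± 0.28), and *Lnpep*, *Akt2* and *Tbc1d1* rose in AMPK-KO cells by 0.91 ± 0.15, 0.96 ± 0.17 and 1.04 ± 0.24. None was called between AMPK genotypes. In TET2-S97E *Stxbp3*, a syntaxin-binding protein, was lower (−0.71 ± 0.10) and *Tbc1d1*, a Rab regulator of GLUT4 that AMPK phosphorylates, was higher (0.90 ± 0.22). These were 2 of the 18 tested, 11.1% against 6.98% of all genes.

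Of 17 other glycolytic and gluconeogenic genes, 7 were tested in the first table, and 1 was called there, the mitochondrial glycerol phosphate dehydrogenase *Gpd2*, which fell in WT from 137 and 268 CPM to 52.1 and 46.4 CPM (−2.04 ± 0.38, edgeR adjusted p = 0.0200). This was 14.3% of the list against 12.4% of all genes. Of the 10 tested among the TET2 libraries 1 was called, *Gpd1l*, at 22.1 to 26.6 CPM in TET2-WT and 36 to 53.2 CPM in TET2-S97E (0.95 ± 0.14, edgeR adjusted p = 0.00832), where 6.98% of all genes were called. Of 11 genes of pyruvate entry tested there, the pyruvate dehydrogenase phosphatase *Pdp2* was higher in TET2-S97E (0.92 ± 0.17) and *Pdp1* lower (−0.87 ± 0.21). This was 18.2% of those tested against 6.98% of all genes. The pyruvate dehydrogenase phosphatase regulator *Pdpr* was higher at d8 in AMPK-KO cells (0.85 ± 0.18), 1 call in 12 tested, or 8.33% against 9.76% of all genes.

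Of 18 transcription factors of glycolytic genes and relatives of *Txnip*, 16 were tested in the first table. Across days 3 were called in WT, 18.8% against 12.4% of all genes. Between AMPK genotypes 1 was called at d8, 6.25% against 5.35%. *Mef2a*, a factor of muscle genes, rose in both genotypes at d8 (0.80 ± 0.17 and 1.15 ± 0.17) and *Mef2d* in WT (0.66 ± 0.16). *Egln3*, an oxygen sensor and itself a target of hypoxia-inducible factors, rose from 28.3 and 52.7 CPM to 119 and 129 CPM in WT (1.62 ± 0.31, edgeR adjusted p = 0.0222) and was at 25.3 and 34.2 CPM in AMPK-KO d8 (−2.06 ± 0.31 against WT d8, edgeR adjusted p = 0.0167). In TET2-S97E *Mef2c* was higher (1.98 ± 0.37) and *Myc* (−0.75 ± 0.18) and *Arnt* (−0.61 ± 0.15) were lower. With *Arrdc3* and *Arrdc4*, given above, 5 of the 15 tested there were called, 33.3% against 6.98% of all genes.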

How the data were processed

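Total RNA of C2C12 cells was sequenced in 16 libraries. The authors trimmed reads with Trim Galore 0.4.5, aligned them with STAR 2.5.3a to GRCm38 (mm10) and counted them per gene with featureCounts 1.5.3 and GENCODE annotation; the values deposited are raw counts, and the strand setting and the handling of reads with several matches were not given in the sources used here. No column or row was left out.

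The 2 tables were analysed apart. Counts were tested with edgeR 4.0.16 in R 4.3.3 (TMM normalization, filterByExpr, quasi-likelihood F test), with Benjamini-Hochberg adjustment over all genes tested and a threshold of 0.05; SE is the absolute log2 fold change divided by the square root of F. The first table was fitted with 4 group means. The TET2 table was fitted with genotype alone, with counts summed per clone given beside each member called. TPM and isoform shares used merged exon lengths from GENCODE M21, which held 49326 of the 49585 identifiers. A floor of 3 counts per library, 0.0791 to 0.165 CPM, limits low values and covers counting error only. Libraries of the same group were further apart than counting error (chi-square per degree of freedom 29.4 to 107), and the sources used here did not tie each library to a line or culture, so p-values measure the spread between these libraries. In the first table same-numbered libraries deviated together (correlations 0.119 to 0.324 over the 6 pairs of groups), so a call that changed with the replicate number as a block is given both ways. The fits were tested on simulated data without clone or replicate-number effects, so that test does not bear on either.

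Members and gene lists were chosen with earlier results of these data known. Every library's value is given for members in the comparisons that called them, the muscle isoforms by library or range, and other members by range. Of each other list, at most 5 called genes are named per comparison. The promoters shown are those of the muscle isoforms with the largest change and of their counterparts. DESeq2 1.42.0, limma 3.58.1, other filters, a replicate block and fits without each library were tried as alternatives. One result of the listed genes is not reported here.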

Additional observations from a re-analysis of the deposited data

Results flagged for a closer look

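Of 77 sets of 4 libraries examined (a member within a TET2 genotype), 4 had a library whose gap to its nearest neighbour, divided by the range, was above Dixon's 95% critical value for 4 samples; chance alone flags about 1 set in 20. *Slc2a1* was highest in TET2-S97E clone 1 replicate 1, at 297 CPM against 83.7 to 117 CPM (ratio 0.843). *Slc2a4* was highest among TET2-WT libraries in clone 2 replicate 2, at 0.463 CPM against 0.0527 CPM or less (0.886), that is 13 counts against 2 or fewer. *Pfkfb2* was highest in the same library, at 17.8 CPM against 9.33 to 10.5 CPM (0.858). *Gapdh* was lowest among TET2-S97E libraries in clone 2 replicate 2, at 1115 CPM against 1566 to 1637 CPM (0.864).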

How the results depend on the processing

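No fold change of a called member reversed. Leaving out 1 library kept 133 calls and lost 107, and the other settings kept 154 and lost 21. Leaving out each library in turn gave 0 to 3 called members for AMPK-KO against WT at d0 (5 with all libraries), 1 to 6 at d8 (4), 0 to 14 for d8 against d0 in WT (12), 0 to 7 in AMPK-KO cells (4), 2 to 8 for TET2-S97E against TET2-WT (4), 0 to 1 between TET2-WT clones (0) and 0 to 4 between TET2-S97E clones (1); the last 2 sets of fits were chosen after seeing the data. In the same order, these fits called 0.112% to 4.07%, 0.715% to 5.95%, 0% to 14.9%, 0% to 11.5%, 2.17% to 8.13%, 0% to 2.02% and 3.06% to 6.86% of all genes. Without a filter on low counts the counts were 11 and 14 between AMPK genotypes at d0 and d8 (8.08% and 9.98% of all genes, against 3.52% and 5.35% with the filter), 12 for the days in AMPK-KO cells (12.1%), 1 for the interaction (1.79%) and 8 and 8 between TET2-WT and TET2-S97E clones (6.36% and 6.57%). DESeq2's Wald test gave 8 at d0 (9.62% of all genes), 10 for the days in AMPK-KO cells (17.8%), 10 for TET2 genotype (13.6%), and 4 and 7 between clones (6.18% and 9.57%). At d0, 3 were called with at least 10 counts in every library (1.78%) and 2 with that day's libraries alone (2.54%). For TET2 genotype, 0 were called with counts summed per clone, 0 without TET2-WT clone 1 (1.29%), 2 without TET2-S97E clone 1 (5.63%) and 1 with limma-voom (1.24%). The causes were not tested. Libraries share replicate numbers, but nothing said that a number marks a shared culture; the deviations of same-numbered libraries correlated at 0.119 to 0.324 among the AMPK libraries, and at −0.0214 to 0.506 among the TET2 libraries, where they did not all deviate together. With the replicate number as a block the counts were 6 at d0 (5.16% of all genes), 7 at d8 (7.98%), 13 and 5 for the days in WT and AMPK-KO cells (16.5% and 12.9%), 0 for the interaction (0%) and 5 for TET2 genotype (6.39%), where *Pygm* lost its call and *Pdk1* and *Ldhb* passed (edgeR adjusted p = 0.0490 and 0.0434). Isoform shares by counts in place of TPM moved by over 1 SD in 33 of 66 cases. Genes at a few counts, such as *Slc2a4* and *Phkg1*, are limited by depth.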
